A study of Drosophila melanogaster with 4 samples.

Results

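Among the Su(Hw) peaks of Drosophila melanogaster white prepupae, 350 stood alone and strong on the autosomes. Each of them lay on arm 2L, 2R, 3L or 3R or on chromosome 4, had an authors' peak score of 45 or more, was narrower than 5000 bp, and had no edge of another peak of any score within 20000 bp on either side. They were drawn from 5357 peaks in the whole list, of which 4141 lay on the autosomes and 2829 of those scored 45 or more. The solitary peaks were 12.4% of these 2829 strong autosomal peaks (Wilson 95% interval 11.2 to 13.6%). The other 2479 strong autosomal peaks are the comparison throughout.

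Su(Hw), suppressor of Hairy-wing, is a DNA-binding protein with an array of C2H2 zinc fingers. It is best known for the insulator of the gypsy retrotransposon, where many copies of its binding site lie side by side and where it works with the partner proteins Mod(mdg4) and CP190 to block communication between an enhancer and a promoter. Most of its sites elsewhere in the genome are not part of gypsy elements and carry few copies of the motif, and Su(Hw) is also known to repress genes, among them neuronal genes in the ovary. Solitary is used here for distance to the next peak in this list. It says nothing about which partner proteins sit at the site, which were not measured.

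The series held 2 libraries of chromatin immunoprecipitated with an affinity-purified polyclonal rabbit antibody against Su(Hw) and 2 libraries of input DNA, numbered 1 and 2 in each group. They came from white prepupae, the brief stage in which the larva stops moving and forms the puparium, of one strain, Y cn bw sp. Its labelled genotype joins y[1] and oc[R3.2] with Gr22b[1], Gr22d[1], cn[1] and CG33964[R4.2], with bw[1] and sp[1], and further with LysC[1] and lab[R4.2] and with MstProx[1], GstD5[1] and Rh6[1]. The study has no second genotype, treatment or stage, and the cells of the animals were not separated, so a peak may come from some tissues and not from others. The files give 1 peak list for the whole series with a position and a score per peak and no value per library. Depth is therefore unknown, replicates could not be compared, and no spread between replicates stands behind any value below. The members were selected on the authors' score, the width and the distances to neighbouring peaks, so these values are a description, with no test. Intervals are Wilson 95% intervals. They hold counting error alone, as if each peak were independent of its neighbours, which is not so.

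The rule separated the strong autosomal peaks mainly by distance. Of the 2479 others, 2248 had another strong peak with an edge within 20000 bp. A further 187, all narrower than 5000 bp, had no strong neighbour at that distance and failed because of weak peaks, those scoring below 45. In 91 of these 187 the nearest weak peak was within 1 kb, and in 49 it was more than 10 kb away. Their median score was 284 and their median width 2782 bp. Broad peaks of 5000 bp or more accounted for the rest, with 26 that were as isolated as the members and 18 that had weak peaks as their only near neighbours.

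Isolation by more than 20000 bp was met by 438 autosomal peaks of any kind. Of these, 62 were weak, with a median score of 22.1 and a median width of 511.5 bp, and 26 were strong but broad, with a median score of 569 and a median width of 6697 bp. Among strong autosomal peaks the isolated ones made up 13.3% (interval 12.1 to 14.6%), and among the 1312 weak ones 4.73% (interval 3.70 to 6.01%).

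**Figure D1:**
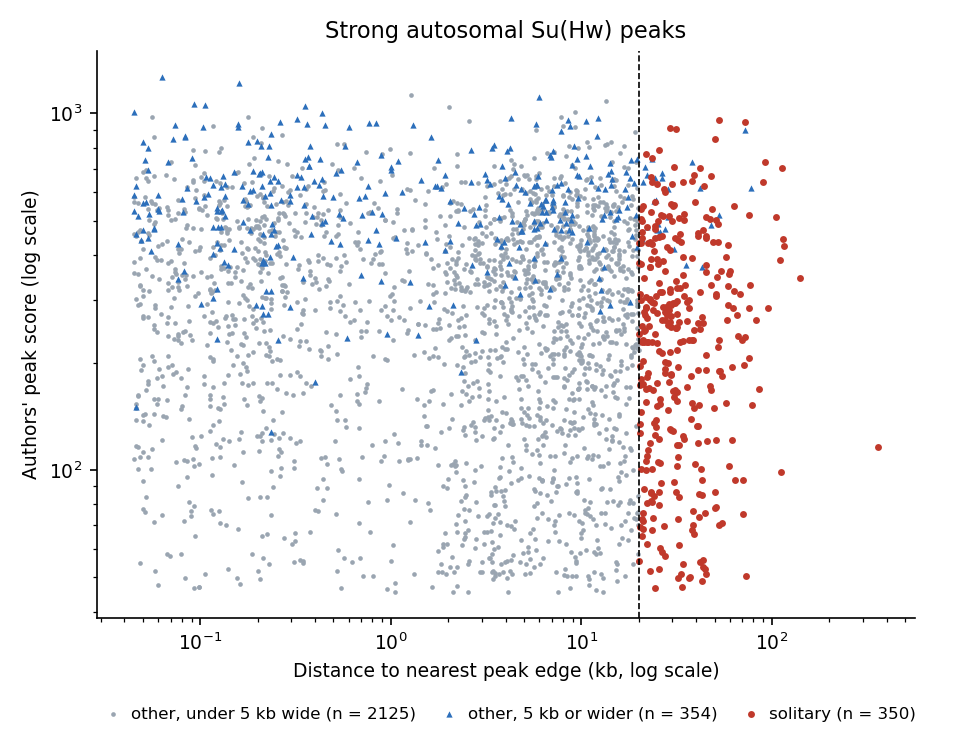
Authors' peak score (vertical, log scale) against the distance in kb to the nearest edge of another peak (horizontal, log scale) for the 2829 strong autosomal peaks, each point 1 peak. The 350 solitary peaks lie right of the dashed line at 20 kb and cover scores from 46.51 to 955.78, and the triangles are the 354 peaks of 5000 bp or more.

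The strongest solitary peak lay at 2R:6743258-6747994. It scored 955.78, was 4737 bp wide, and its nearest neighbours were 55.8 kb to the left and 52.7 kb to the right. Another strong one stood on the same arm at 2R:7467627-7471009, with a score of 943 and empty stretches of 110 kb and 72.2 kb. The peak at 2L:19164711-19167583 scored 912.41 and had 29.0 kb of empty sequence on one side and 196 kb on the other. These 3 peaks were picked for their high scores from peaks that the rule already required to stand apart. They are examples, and their scores and distances are descriptions only.

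The next in score was 2R:15826820-15831329, which scored 904.6 with gaps of 159 kb and 31.3 kb. Arm 3L held 4 of the 10 highest. Its peak at 289019-292879 scored 848.8, that at 8064355-8066390 scored 789.27, that at 15509223-15511504 scored 770.49 and that at 17731286-17735128 scored 751.4. They differed in width, with 3861 bp and 3843 bp for the first and last and 2036 bp and 2282 bp for the other two.

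On 3R the highest solitary score, 729.26, belonged to 3R:4687953-4691379, with 92.3 kb and 207 kb of empty sequence beside it. The remaining one of the 10, 2L:12074997-12078826, scored 706.29. Chromosome 4 was not represented among them. The gene content of these sites was not analysed here.

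The solitary peaks as a group sat lower in score than the others. Their median score was 246, between extremes of 46.51 and 955.78 (interquartile range 126 to 381), whereas the median of the others was 325 (interquartile range 162 to 491). With the width limit applied to both groups the medians were closer, as the 2125 others narrower than 5000 bp had a median of 282 (interquartile range 139 to 436). Of the 350 solitary peaks, 117 (33.4%, interval 28.7 to 38.5%) scored above 311, the median of all strong autosomal peaks. Among the 100 strong autosomal peaks with the highest scores, 7 were solitary and 52 were 5000 bp or wider. Of all 2829, 350 (12.4%) were solitary and 354 were that wide. A peak of 5000 bp or wider cannot be solitary by the rule, so the 7 came from the narrower ones alone. The 7 of 100 is therefore not a like value to the 12.4%. Among all strong autosomal peaks under 5000 bp, 350 were solitary and 2125 were not. With the wide peaks set aside in both, the solitary share of the top 100 was about that of the whole.

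Divided into 10 classes of nearly equal size by score, the strong autosomal peaks changed their solitary share between the fifth and the sixth class. In the lower 5 classes, with scores up to 311.2, 232 of 1414 peaks were solitary, or 16.4% (interval 14.6 to 18.4%). In the upper 5 classes it was 118 of 1415, or 8.34% (interval 7.01 to 9.90%). Peaks of 5000 bp or wider, which cannot be solitary, are counted in these totals. The share was 15.2 to 18.9% in each of the lower classes and 4.93 to 10.5% in each of the upper ones. The highest share, 18.9%, was that of the fifth class with scores of 250 to 311, and the lowest, 4.93%, that of the ninth with scores of 519 to 623.

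The drop was smaller but still present without the width limit. Then 144 of the 1415 upper peaks were isolated, or 10.2% (interval 8.71 to 11.9%), against the same 232 of 1414 in the lower classes. In the tenth class, where 47.3% of the peaks were 5000 bp or wider, the share rose from 7.77% to 10.95% without the limit. The shares without the limit stayed below those of the lower 5 classes in each of the upper 5. The eighth class came closest, at 13.6% (interval 10.1 to 18.1%), and its interval overlaps that of each lower class. Among peaks under 5000 bp, the first class held 44 solitary peaks and 237 others, and the eighth 30 and 195. The ninth held 14 and 189, and the tenth 22 and 127. On that count the tenth class came near the first, the eighth lay a little below them, and the ninth stayed further below.

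**Figure D2:**
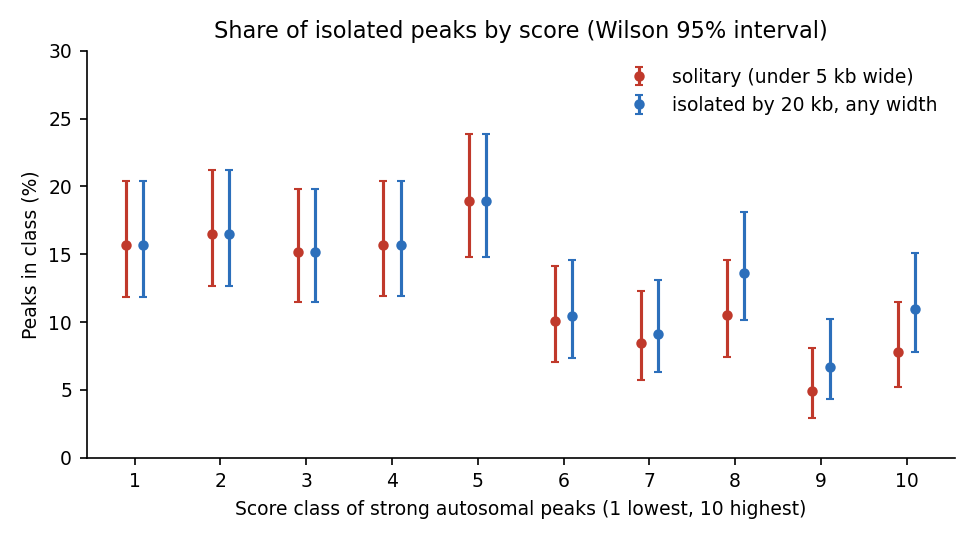
Percent of strong autosomal peaks (vertical) that were solitary, or isolated by 20 kb at any width, in 10 classes of the authors' score (horizontal), with Wilson 95% intervals as bars. Classes 1 to 5 lie between 15.2 and 18.9%, and the solitary share in classes 6 to 10 lies between 4.93 and 10.5%.

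Solitary peaks were also narrower. Their widths ran from 341 to 4740 bp with a median of 2287 bp (interquartile range 1498 to 3083.5 bp), against a median of 2891 bp (interquartile range 1915 to 3740 bp) for the others under 5000 bp. Width rises with score in this list, and within the solitary peaks the Spearman rho between them was 0.751 over 350 peaks, close to the 0.759 among the 2125 others under 5000 bp. Score and width of a peak come from the same peak call, so these values are descriptions. Because the groups differed in score, widths were also compared within the score classes.

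At like score the solitary peaks were still the narrower ones. Their median width was below that of the other strong peaks under 5000 bp in 10 of 10 score classes. In the lowest class it was 969.5 bp against 1268 bp, in the fifth class 2516 bp against 2988 bp, and in the seventh class 2789.5 bp against 3612 bp. The ratio of the medians was smallest in the lowest class, at 0.765, and closest to 1 in the tenth, at 0.964. In all, 242 of the 350 solitary peaks (69.1%, interval 64.1 to 73.8%) were narrower than the median other peak of their class. Width and distance both belong to the rule, and a wider peak has shorter distances from edge to edge. With gaps taken between centres, 284 of 431 solitary peaks (65.9%, interval 61.3 to 70.2%) were narrower. The interquartile ranges of the groups overlapped in each class.

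**Figure D3:**
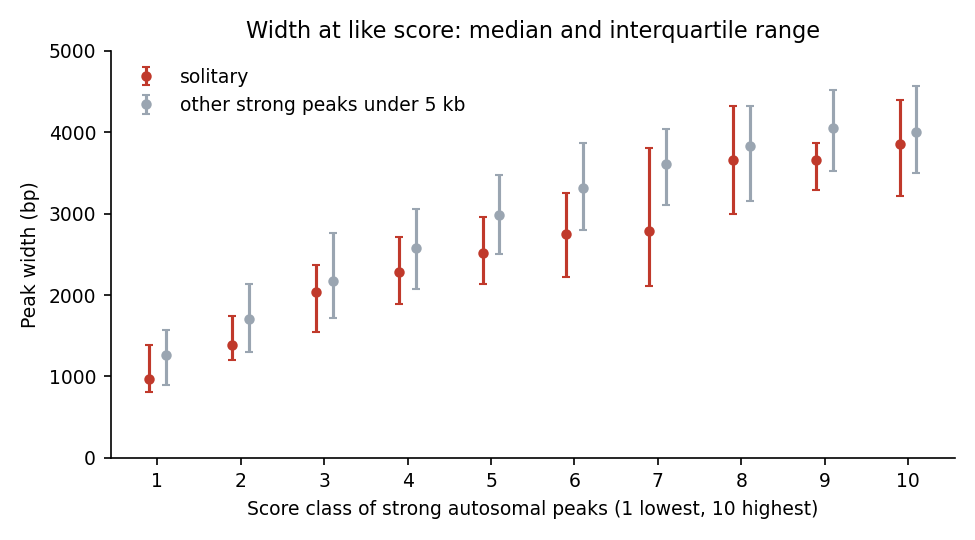
Width in bp (vertical) of solitary peaks and of the other strong autosomal peaks under 5 kb in the 10 score classes (horizontal); points are medians and bars interquartile ranges. The solitary median is the lower one in 10 of 10 classes.

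The smaller width was found at each distance above 20 kb and not just below it. Each peak under 5000 bp was set against the median width of its score class, all strong autosomal peaks under 5000 bp included. Peaks with a neighbour 10 to 20 kb away had a median relative width of 0.988 (interquartile range 0.807 to 1.15, 409 peaks). Solitary peaks with the nearest neighbour 20 to 30 kb away had 0.871 (interquartile range 0.721 to 1.10, 168 peaks). Beyond that the value was about the same, with 0.874 at 30 to 50 kb (120 peaks) and 0.897 above 50 kb (62 peaks). In finer steps the median was 0.994 at 10 to 15 kb and 0.979 at 15 to 20 kb. It was 0.901 at 20 to 25 kb, 0.834 at 25 to 30 kb and 0.874 at 30 to 35 kb. At 35 to 40 kb it was 0.910 (25 peaks), and at 40 to 50 kb 0.869. The interquartile ranges overlapped throughout, and above 20 kb the medians followed no steady course.

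Among the others, the widest for their score were the 545 with a neighbour 1 to 5 kb away, at 1.07. The 744 with a neighbour within 1 kb had 1.02, and the 427 at 5 to 10 kb had 0.993. The share of peaks narrower than the median of their class was 66.7% at 20 to 30 kb (interval 59.2 to 73.4%) and 52.1% at 10 to 20 kb (interval 47.2 to 56.9%).

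**Figure D4:**
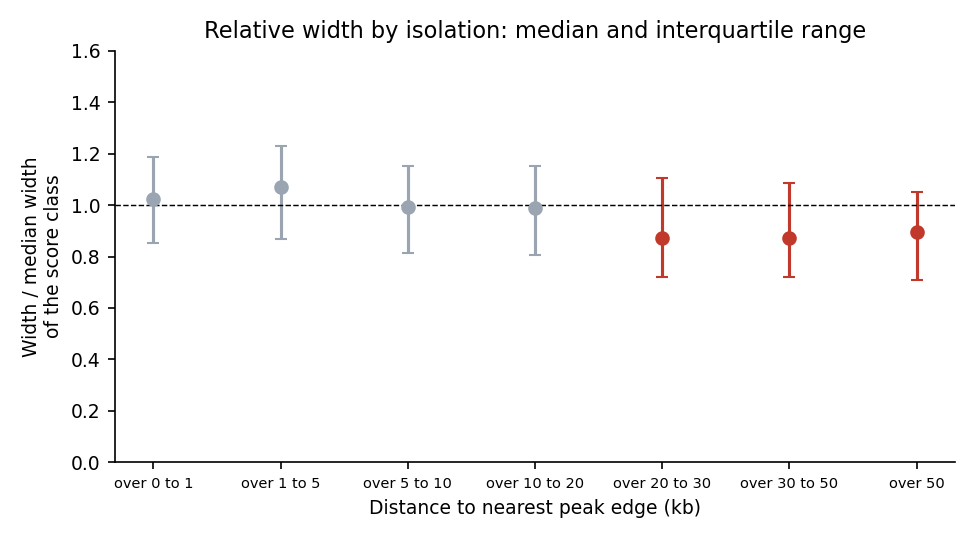
Width divided by the median width of the peak's score class (vertical, no unit) by distance in kb to the nearest other peak (horizontal), for strong autosomal peaks under 5 kb; points are medians, bars interquartile ranges, and the 3 points above 20 kb are the solitary peaks. The medians are 0.988 at 10 to 20 kb and 0.871 at 20 to 30 kb.

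The extremes of width were small peaks with modest scores and large ones with high scores. The narrowest solitary peak, 2L:14618971-14619311, measured 341 bp and had a score of 51. The next narrowest were 3L:342880-343279 with 400 bp and a score of 86.68, and 4:1166987-1167431 with 445 bp and a score of 102.51. The widest, 2L:7532883-7537622 with 4740 bp, scored 670.71, and 2L:1134385-1139080 with 4696 bp scored 700.78. Between them in width came the strongest solitary peak, on 2R. Together the 350 peaks covered 825 kb.

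The distance from a solitary peak to its nearest neighbour was 20 to 30 kb in 168 cases and more than 30 kb in 182 (52%). Its median was 30.7 kb (interquartile range 24.1 to 43.1 kb). In 62 peaks (17.7%, interval 14.1 to 22.1%) the nearest neighbour was more than 50 kb away, and in 8 (2.29%, interval 1.16 to 4.44%) more than 100 kb. The larger of the gaps beside a solitary peak had a median of 64.5 kb and reached 568 kb. For the 347 peaks with a neighbour on both sides, the empty sequence around the peak added up to a median of 99.1 kb.

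The sides were often uneven. The larger gap was 1.81 times the smaller one in the median, at most 2 times in 204 of the 347 peaks and more than 5 times in 27.

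Within the solitary peaks, score showed next to no relation to the distance to the nearest neighbour. Score and distance to the nearest neighbour had a Spearman rho of 0.0507 over the 350 solitary peaks, and width and distance one of -0.00204. The median score was 249 with the nearest neighbour at 20 to 30 kb (interquartile range 134 to 380, 168 peaks). It was 229 at 30 to 50 kb (interquartile range 108 to 364, 120 peaks) and 268 at 50 to 100 kb (interquartile range 173 to 360, 54 peaks). The 8 peaks beyond 100 kb had a median of 406 (interquartile range 288 to 462), and their scores, 98.37 to 701.76, lay inside the range of each of the other classes.

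The most isolated solitary peak of each arm differed widely in score. On 4 it was 4:67630-68325, the first peak of that chromosome, which scored 116.11 and had its neighbour 358 kb to the right. On 3R it was 3R:12624244-12625191, which scored 424.12 at a width of 948 bp, with 115 kb and 184 kb of empty sequence on its sides. On 3L it was 3L:21533649-21535998, with a score of 98.37 and gaps of 111 kb and 201 kb.

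On the chromosome 2 arms the distances were shorter. The peak 2L:20717130-20719715 scored 284.18 with 101 kb and 94.9 kb of empty sequence. The peak 2R:19796485-19800549 scored 205.86 with 75.9 kb and 82.1 kb.

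The peaks on the far side of these gaps were strong about as often as autosomal peaks at large, once members were set aside. Solitary peaks had 697 flanking peaks in the order along the arms, a peak that lies between 2 solitary ones being counted once for each. Of these, 234 were solitary peaks themselves, which are strong by the rule. Among the other 463, 314 were strong (67.8%, interval 63.4 to 71.9%), and 65.4% of all autosomal peaks that were not solitary were strong. The nearest neighbour was strong for 283 of the 350 (80.9%, interval 76.4 to 84.6%), against 68.3% of all autosomal peaks. That count includes nearest neighbours that were solitary themselves and so strong by the rule. The median score of all 350 nearest neighbours was 223. The other 67 solitary peaks had a weak nearest neighbour, which a solitary peak outscores by the rule. Where the nearest neighbour was strong, the solitary peak outscored it in 137 of 283 cases (48.4%, interval 42.6 to 54.2%).

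Solitary peaks often followed one another along an arm. A solitary peak was the next peak in order, on at least one side, for 188 of the 350 (53.7%, interval 48.5 to 58.9%). For the other strong autosomal peaks this held in 312 of 2479 (12.6%, interval 11.3 to 13.9%). The gap beside a solitary peak is also its neighbour's gap, so that neighbour meets the rule on one side by construction. A peak without any gap of more than 20000 bp cannot stand next to a solitary one. Solitary peaks have no shorter gap on either side, so these shares differ in part by construction. Among the others, 1208 (48.7%) had one gap of more than 20000 bp and one shorter, and their median score was 319. Apart from the 26 isolated broad peaks, the rest of the others had no such gap and could not qualify. Of 233 uninterrupted stretches of solitary peaks, 162 held 1 peak, 41 held 2, 19 held 3, 8 held 4, 2 held 5 and 1 held 7.

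The longest stretch lay on 3L. Its 7 solitary peaks spanned 3L:14205075-14558668, or 354 kb, with no other peak between them. In order along the arm they scored 229.12, 481.26, 192.03, 274.44, 216.37, 93.38 and 453.17. The gaps between them were 22.1, 27.4, 103, 31.8, 82.7 and 70.9 kb. Neither scores nor gaps followed a regular order along the stretch.

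The stretches of 5 were on chromosome 4, over 658 kb, and at 2R:8377968-8564718, over 187 kb. In the latter the scores were 432.23, 65.19, 227.9, 391.51 and 150.6, and the gaps 46.9, 20.9, 80.5 and 24.9 kb. The window of 1 Mb with the most solitary peaks, 3L:14000001-15000000, held 10 of them among 22 strong peaks and 26 peaks in all, and included the stretch of 7. It was followed by 2R:3000001-4000000 with 8 of 38 peaks. Another 3 windows tied with 7, at 2L:8000001-9000000 (30 peaks), 3L:1-1000000 (17 peaks) and 3R:14000001-15000000 (53 peaks).

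Solitary peaks were otherwise spread thinly over the arms. The 95 complete windows of 1 Mb held a median of 3 solitary peaks (interquartile range 2 to 5), and 2 windows held none. Of those 2, one held 2 peaks of any kind and the other 60. Windows with more peaks of any kind tended to hold fewer solitary ones, with a Spearman rho of -0.242 over the 95 windows. Solitary peaks are counted in both measures. By the rule they also need 20000 bp without a peak on either side, so crowded windows leave less room for them.

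The large arms had similar proportions of solitary peaks. They were 73 of 647 strong peaks on 2L (11.3%, interval 9.07 to 14.0%), 83 of 618 on 2R (13.4%, interval 10.97 to 16.3%), 91 of 676 on 3L (13.5%, interval 11.1 to 16.2%) and 97 of 880 on 3R (11.02%, interval 9.12 to 13.3%). These intervals overlap. Median scores of the solitary peaks were 238 on 2L, 253 on 2R, 241 on 3L and 232 on 3R, each below the median of the other strong peaks of its arm, which ran from 315 on 2L to 338 on 2R. Strong peaks of X that met the same limits of score, width and distance were 92 of 681 (13.5%, interval 11.1 to 16.3%), an interval that overlaps those of the 4 large autosomal arms.

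Chromosome 4, the small and largely heterochromatic dot chromosome, was the exception. Of its 8 strong peaks, 6 were solitary (75%, interval 40.9 to 92.9%). It carried 6.85 strong peaks per Mb up to the end of its last peak, and the large arms 27.6 to 31.6 per Mb. Its solitary peaks lay at 67630-68325 (score 116.11), 509620-511879 (score 236.23), 960518-963837 (score 345.38), 1103961-1105560 (score 187.22), 1132991-1135398 (score 278.12) and 1166987-1167431 (score 102.51).

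The highest score of chromosome 4 was not among them. The peak at 434533-437162 scored 867.59, and a weak peak of score 15.26 lay 0.267 kb to its left. The remaining strong peak, at 426731-429534 with a score of 69.55, lay 4.27 kb to the left of that weak peak. The 6 solitary scores thus lay between those of the 2 strong peaks that were not solitary.

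Along the large arms the solitary share was highest in the section that faces the centromere. When each arm was divided into 5 sections of equal length, up to the end of its last peak, 66 of 407 strong peaks of the first section were solitary (16.2%, interval 12.95 to 20.1%). In the other 4 sections, going outwards, the shares were 11.3% (interval 9.04 to 14.1%), 12.7% (interval 10.2 to 15.6%), 11.9% (interval 9.54 to 14.7%) and 10.2% (interval 8.06 to 12.9%). The first section held fewer strong peaks than the others, 407 against 597 to 617, and nearly the same number of solitary ones, 66 against 63 to 76. The interval of the first section overlaps those of the 3 middle sections and lies just above that of the last. No test was run, because distance to the next peak both follows local density and chose the members.

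In the 2 Mb nearest the centromere lay 26 of the 350 solitary peaks (7.43%, interval 5.12 to 10.7%) and 91 of the 2479 others (3.67%, interval 3.00 to 4.49%). Chromosome 4 is shorter than this and counts there whole. Without it the figures were 20 of 344 (5.81%, interval 3.79 to 8.81%) and 89 of 2477 (3.59%, interval 2.93 to 4.40%), and these intervals overlap. The share was larger for solitary peaks on each large arm, by little on 2L (5.48 against 5.40%) and with the largest difference on 3R (8.25 against 3.70%), with 4 to 8 solitary peaks behind each value.

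**Figure D5:**
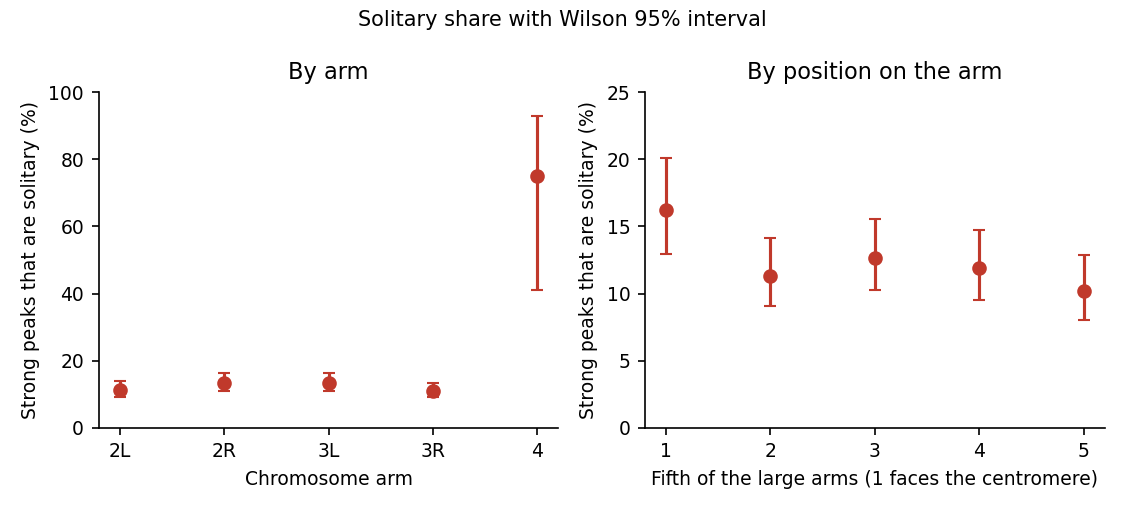
Percent of strong peaks that were solitary (vertical) by chromosome arm (left) and, for the 4 large arms together, by section of equal length from the centromere-facing end, 1, to the other end, 5 (right); bars are Wilson 95% intervals and the vertical scales differ. Chromosome 4 stands at 75% from 8 peaks, and the first section at 16.2%.

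Peaks next to the limits of the rule show how close the members come to the peaks left out. The lowest score of a member, 46.51, was that of 2L:935050-936113, followed by 47.03 for 3L:14046938-14048401 and 48.73 for 3R:17334849-17335455. Just under the limit, and isolated as well, 3R:7933042-7934072 had a score of 44.34, 2L:10783433-10784736 one of 43.8 and 3L:22823389-22824057 one of 42.9.

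At the distance limit, the members 3L:16734086-16736487 and 3L:16756545-16757395 faced each other across 20058 bp, and 3R:27619729-27620649 had a neighbour at 20154 bp. Just outside, 2L:16967209-16970230 had one at 19965 bp, and 3R:9762635-9764813 and 3R:9784772-9788655 were 19959 bp apart. At the width limit, the widest member measured 4740 bp, and the narrowest isolated peaks left out were 2L:15231932-15236938 with 5007 bp, 3L:2241331-2246374 with 5044 bp and 3L:10635282-10640408 with 5127 bp. These scores and distances lay close to their limits on either side, while no isolated strong peak had a width between 4740 and 5007 bp.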

How the data were processed

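Su(Hw) ChIP and input DNA libraries of white prepupae were sequenced, and the authors deposited 1 peak list for the series. Each deposited score is the output of MACS, as the source column of the file states, on an unstated scale. Start and end are other values of that deposited list, 1-based on FlyBase release 5. MACS2, BWA and CASAVA (1.7.0.2 and 1.7.0.3) and build BDGP5 are listed by the submitters' processing notes. Threshold, use of input and replicate pooling: not given in the sources used here. Columns of per-sample values set aside numbered 0.

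The distance between peaks is the start of one minus the end of the one before, on the same arm; the end of an arm counts as no neighbour. Score classes are deciles of the strong autosomal peaks. Positions use peak centres, and arms run to the end of their last peak, with the centromere at the high end of 2L and 3L and the low end of 2R, 3R and 4. The members, the comparisons and the rule for named regions were chosen with earlier results of these data known. That rule took the 10 highest scores, the most isolated peak per arm, the extremes of width, the peaks next to each limit, and the longest stretches and fullest 1 Mb windows. No test was run, since score, width and distance chose the members and the list has no replicates. The rule was checked on simulated peaks. Sequence and genes were not used here, as no genome of release 5 was used. The software was pandas 2.3.3 and NumPy 2.4.6 under Python 3.11.15, with SciPy 1.17.1 for intervals and matplotlib 3.10.9 for figures.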

Additional observations from a re-analysis of the deposited data

How the results depend on the processing

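The 6 main values were recomputed under 9 alternatives, of which leaving out chromosome 4 was chosen after seeing the data. Of 54 alternative values, 39 stayed within the Wilson interval of the reported share or within 1.5 times the reported count of 350. For the shares near the centromere and next to another solitary peak, the values of the other strong peaks were not recomputed. The distance limit and the neighbours counted moved the number most. At 10000 bp there were 759 solitary peaks (26.8% of the strong autosomal ones), of which 38.7% scored above the median, 62.7% were narrower at like score, 5.01% lay in the 2 Mb nearest the centromere and 64.0% stood next to another. At 30000 bp there were 182 (6.43%), with 43.4% next to another, a minority in place of the reported 53.7%. With weak neighbours ignored there were 537 (19.0%). Gaps between centres gave a share of 15.2%, and joining peaks within 1 kb gave 15.9%, with 62.9% next to another. At a score of 100 or more 47.7% stood next to another, likewise a minority. The number and these shares follow from the limits by construction. No paired analysis was possible because libraries have no values of their own in the file, and no replicate could be left out. With depth unknown, sequence that looks empty beside a solitary peak may hold sites below the limit of detection.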
